A study of Caenorhabditis elegans with 4 samples.

Results

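The core and linker histone genes of *Caenorhabditis elegans* were followed in embryos lacking *meg-1* and *meg-2* and in wild-type embryos. They were taken as every gene of the count table named *his* or *hil* followed by a number, which gave 80 of 42048 genes, 72 named *his* and 8 named *hil*. Histones H2A, H2B, H3 and H4 form the core particle on which DNA is wound into nucleosomes, and the linker histone H1 binds the DNA between particles. Most core histone genes of the worm lie in small clusters, lack introns and are copied into mRNAs that end in a stem-loop in place of a poly(A) tail, and their products are deposited on newly replicated DNA. A smaller set encodes replacement variants, such as H3.3, which can be placed on chromatin outside S phase. Early embryos run through rapid rounds of replication and depend first on maternal and later also on zygotic supplies of histone. Of the 80 genes, 20 were assigned to H3, 17 to H2A, 16 to H2B, 16 to H4 and 9 to H1 by coding length or by name, and 2 (*his-39* and *his-73*, short gene models) were left without a class.

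The *meg-1 meg-2* embryos came from worms with the *meg-1(vr10)* allele fed bacteria expressing *meg-2* dsRNA, and the controls from N2 worms, the laboratory wild type, fed bacteria with the empty L4440 vector. MEG-1 and MEG-2 are disordered proteins of the embryonic germ lineage. Each genotype had 2 libraries from separate cultures grown at 20°C. The embryos were released from young adults by bleaching and are described as early for cultures of this kind, and the range of embryonic ages within a library is not stated. Whole embryos were sequenced, so fewer cells using a gene and less RNA per cell cannot be told apart.

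The libraries were made from total RNA after rRNA removal, without selection for poly(A), so histone mRNAs without a tail could be sequenced. The 4 libraries had between 20662429 and 26017429 reads on genes, and values are given in fpm, the authors' depth-scaled unit in which a library's reads are made comparable with those of the others. The deposited table holds genotype means, from which the whole reads of each library were recovered, and the libraries of a genotype are called A and B as they could not be matched to the replicate labels. The targeted gene *meg-1* had 19 and 18 reads in *meg-1 meg-2*, against 1933 and 2423 in wild type, and *meg-2* had 141 and 172 reads against 515 and 677. The wild-type libraries stood further apart than the *meg-1 meg-2* libraries. The log2 difference between libraries of a genotype had an SD of 0.10 for *meg-1 meg-2* and 0.22 for wild type, over tested genes no lower than the median. An exact permutation of 2 against 2 cannot go below *P*=0.333 for a single gene, so tests across all genes with limma were used. In limma the spread between the 2 libraries of each genotype is combined with that of tested genes at similar levels. Its *P*-values and standard errors therefore rest partly on other genes.

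Only a part of the histone genes was measurable. Reads were counted on 44 of the 80 genes, and 36 genes (45%) were listed at 0 in all 4 libraries, against 1043 of 19574 protein-coding genes (5.33%). The genes at 0 were nearly all copies that the WBcel235 annotation does not name apart. In that annotation 36 of the 80 genes carry a symbol that other histone loci also carry, 14 symbols in all, and 35 of these 36 genes were listed at 0. Of the 44 genes with a symbol of their own, 1 was listed at 0, the linker gene *hil-8*. The exception among the shared symbols was *his-57*, with 9 reads over the 4 libraries, a gene model that overlaps exons of *klp-12* on the opposite strand.

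**Figure D1:**
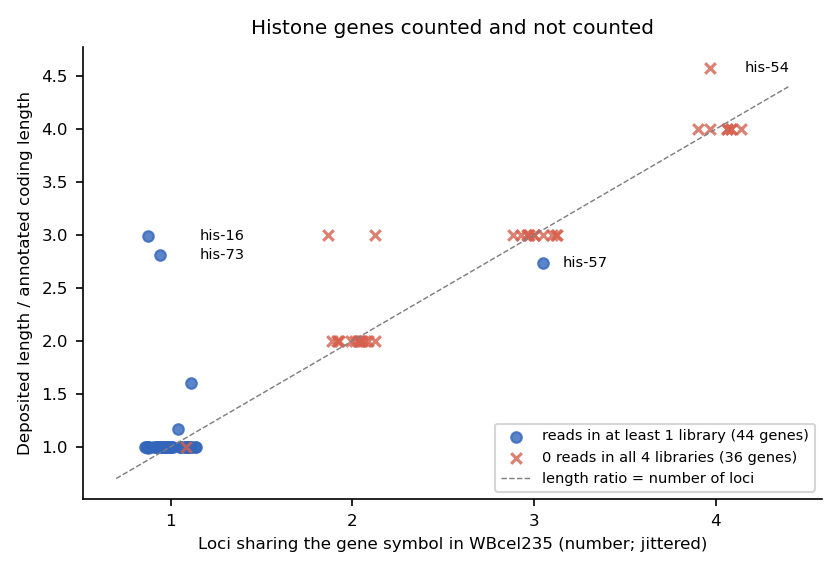
Each point is 1 of the 80 histone genes, with the number of WBcel235 loci that share its symbol on the horizontal axis (jittered) and the ratio of its deposited length to its annotated coding length on the vertical axis. The 44 genes with reads (circles) sit at 1 locus except *his-57*, and 35 of the 36 genes at 0 (crosses) sit at 2 or more loci, mostly on the line where the ratio equals the number of loci.

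The deposited gene lengths followed the same division. For 32 of the genes with a shared symbol, the length in the table was the coding length multiplied by the number of loci sharing the symbol, to within 0.005 of the ratio, and all 32 were listed at 0. A copy listed at 0 cannot be read as a copy without transcripts. By class, reads were counted on 8 of 9 H1 genes, 13 of 20 H3 genes, 9 of 16 H4 genes, 7 of 17 H2A genes and 5 of 16 H2B genes. The largest cluster, 13 genes on chromosome II around *his-16*, had reads on *his-16* and *his-42* alone. *his-16*, an H2A gene, had a deposited length of 1150 bp, 2.99 times its coding length, and it overlaps exons of the non-coding RNA *ZK131.14* on the opposite strand. The strand setting of the counting is not given in the sources used here, so reads of such pairs, and of near-identical coding sequences at other histone loci, cannot be assigned with certainty.

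Many of the counted histone transcripts were among the most abundant of the embryo. Ranked by fpm per length among 19574 protein-coding genes, the first 7 were all histone genes: *his-60* (H4), *his-59* (H3), *his-1* (H4), *his-64* (H4), *his-62* (H2B), *his-67* (H4) and *his-61* (H2A). A total of 23 histone genes stood in the first 100, and the lowest histone gene with reads, *his-57*, was at rank 16668. *his-60* averaged 12105 FPKM (with length in kb) in *meg-1 meg-2* and 8917 FPKM in wild type, and *his-59* 9252 and 6112 FPKM. The highest variant was *his-72*, which encodes H3.3, with 1542 FPKM in *meg-1 meg-2* and 1233 FPKM in wild type, at rank 27. The highest linker gene was *hil-2*, with 1208 FPKM in *meg-1 meg-2* and 954 FPKM in wild type, at rank 49. The histone genes together took 3.23% and 3.48% of the reads of the *meg-1 meg-2* libraries, against 2.35% and 2.79% in wild type.

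**Figure D2:**
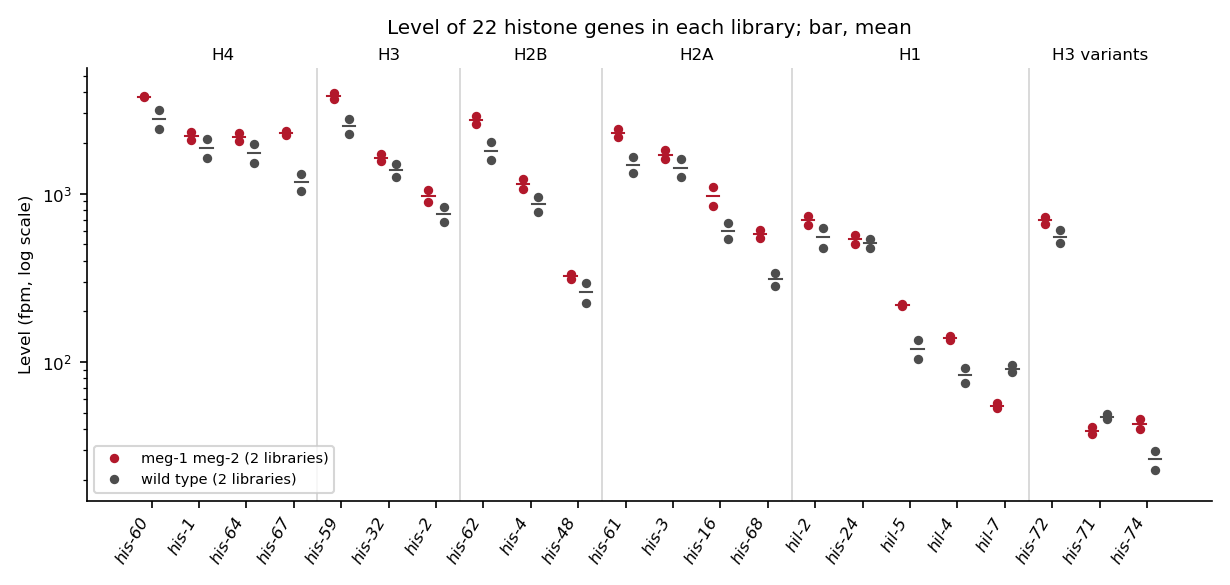
Level of 22 histone genes in each library in fpm (log scale), grouped by class, with *meg-1 meg-2* in red and wild type in grey, points for libraries and bars for the mean of 2 libraries. *his-67*, *his-68*, *hil-5* and *hil-4* show the widest separation upward and *hil-7* downward, and for *his-1* and *his-24* the ranges of the genotypes overlap.

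Histone transcripts were moderately more abundant in *meg-1 meg-2* embryos than in wild type. Their sum was 32643 (A) and 35800 (B) fpm in *meg-1 meg-2*, against 22249 (A) and 27853 (B) fpm in wild type, a ratio of means of 1.37. Neither *meg-1 meg-2* value overlapped wild type, and the ratio was 1.17 for the closest pair of libraries and 1.61 for the farthest. The ratio within wild type, B over A, was 1.25, which is larger than the ratio of the closest pair across genotypes. The ratio within *meg-1 meg-2*, B over A, was 1.10.

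Among the counted genes, the ratio was similar in the core classes and smaller for H1. The sums leave out the copies listed at 0, so they are not totals of a class. Those of H3 and H2A include variants, and without them the ratios were 1.37 and 1.41. The summed H4 transcripts were at 12072 and 12767 fpm in *meg-1 meg-2*, against 8001 and 10296 fpm in wild type, a ratio of 1.36. H3 had 8840 and 9834 fpm in *meg-1 meg-2*, against 6221 and 7537 fpm, also a ratio of 1.36. H2A had 5840 and 6656 fpm in *meg-1 meg-2*, against 3948 and 4945 fpm, a ratio of 1.41. The summed H2B transcripts, with 4185 and 4652 fpm in *meg-1 meg-2* and 2742 and 3463 fpm in wild type, gave a ratio of 1.42. H1 had the smallest ratio, 1.22, from 1700 and 1887 fpm in *meg-1 meg-2* and 1334 and 1608 fpm in wild type. In each of these 5 classes the lower *meg-1 meg-2* library exceeded the higher wild-type library.

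For the test of single genes, a gene had to have a mean of at least 2.18 FPKM with the length in kb, which 40 of the 80 histone genes and 13060 genes in all had. The 4 genes with reads that missed this level were *his-69*, *his-70*, *his-57* and *hil-1*. A gene was called when it changed by at least 1.5-fold with a Benjamini-Hochberg adjusted *P* below 0.05 in limma, on log2(FPKM + 2.00). 4 histone genes were called higher in *meg-1 meg-2* (*his-67*, *his-68*, *hil-5* and *hil-4*), where 2.34% of all tested genes were called higher. 1 was called lower (*hil-7*), where 1.36% of all tested genes were. The genotypes did not overlap, with *meg-1 meg-2* the higher, for 30 of the 40 genes (34.2% of all tested genes), and with *meg-1 meg-2* the lower for 4 (30.4% of all tested genes). They overlapped for the remaining 6.

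Most of the tested histone genes stood slightly higher in *meg-1 meg-2* without passing the test. The log2 fold change was above 0 for 35 of the 40, where 49.7% of all tested genes were above 0. Its median was 0.35, against −0.0030 over all 13060 genes, and it ranged from −0.72 to 0.98, with standard errors of 0.10 to 0.21. With quantile normalization 32 of the 40 were above 0 and the median was 0.20. *his-1*, *his-61* and *his-64*, among the most abundant genes of the embryo, turned to values below 0. Quantile normalization gives every library the same set of values, and histone genes held the highest ranks of protein-coding genes. It can therefore remove a rise that these genes share, and its result cannot show whether they rose together. Divided by level, after the values were seen, the 30 histone genes with a mean of at least 100 fpm all had a log2 fold change above 0, and of the 10 below that level 5 did.

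The number of calls differed between tests and call rules. With the unadjusted *P* in place of the adjusted one, 11 histone genes were higher (4.23% of all tested genes) and 1 lower (3.94%). DESeq2 on the recovered reads, after adjustment, called the same 11 higher (4.11% of all tested genes) and 1 lower (1.68%). edgeR's quasi-likelihood test called 6 higher (2.88%) and 1 lower (2.50%). The 11 genes were *his-67*, *his-68*, *hil-5*, *hil-4*, *his-74*, *his-16*, *his-38*, *his-40*, *his-59*, *his-61* and *his-62*. Leaving out wild-type library A left 0 histone genes called by limma in either direction, as of all tested genes, with 3 higher and 1 lower at an unadjusted *P* below 0.05. Leaving out wild-type library B gave 8 called higher and 1 lower, while calls over all tested genes became 7.95% higher and 4.8% lower. Without *meg-1 meg-2* A the calls were *his-67*, *his-68*, *hil-5* and *his-16*, and without *meg-1 meg-2* B they were *his-67* and *hil-5*, so *hil-7* and *hil-4* were no longer called in either case.

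**Figure D3:**
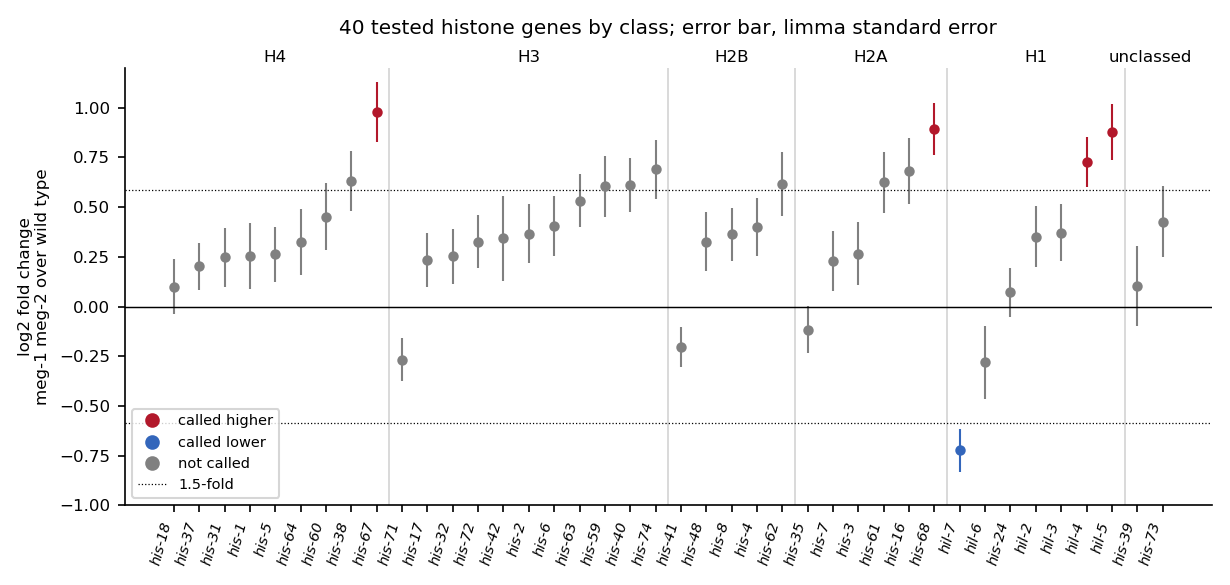
Log2 ratio (*meg-1 meg-2* over wild type) for the 40 tested histone genes, ordered within each class, with the standard error from limma as bars and dotted lines at 1.5-fold. Red marks the 4 genes called higher and blue *hil-7*, called lower, and 35 of the 40 points lie above 0.

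The largest rise was in a pair of core genes on chromosome I. *his-67* encodes H4 and *his-68* H2A, and they lie head to head from 9988452 to 9988763 and from 9989132 to 9989515 of WBcel235. *his-67* had 2229 and 2347 fpm in *meg-1 meg-2*, against 1034 and 1303 fpm in wild type. It was 1.96-fold higher, or 0.98 on the log2 scale (standard error 0.15, limma adjusted *P*=0.0323). *his-68* had 544 and 608 fpm in *meg-1 meg-2*, against 284 and 337 fpm in wild type, and was 1.85-fold higher (log2 fold change 0.89, standard error 0.13, limma adjusted *P*=0.0317). The pair made up 8.50% and 8.25% of all counted histone fpm in *meg-1 meg-2*, against 5.92% and 5.89% in wild type. That share differed far less between the libraries of a genotype than between genotypes, whereas the histone total differed by 1.25 times between the wild-type libraries.

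The cluster with the highest level differed less. *his-59* to *his-62*, 1 gene for each core histone, lie on chromosome IV between 7485834 and 7488659 of WBcel235 and carried 37.2% and 36.5% of the histone fpm in *meg-1 meg-2*, against 34.2% and 34.4% in wild type. *his-59* (H3) had 3634 and 3972 fpm in *meg-1 meg-2*, against 2261 and 2764 fpm, a 1.51-fold difference with a limma adjusted *P* of 0.0650. *his-62* (H2B) had 2601 and 2884 fpm in *meg-1 meg-2*, against 1579 and 2022 fpm, a 1.52-fold difference with a limma adjusted *P* of 0.0683. *his-61* (H2A), with 2166 and 2415 fpm in *meg-1 meg-2* and 1333 and 1650 fpm in wild type, differed 1.54-fold, with a limma adjusted *P* of 0.0612. *his-60* (H4) had 3753 and 3800 fpm in *meg-1 meg-2*, against 2429 and 3136 fpm, a 1.36-fold difference with a limma adjusted *P* of 0.128. None of the 4 passed the test, and in all 4 the lower *meg-1 meg-2* library exceeded the higher wild-type library.

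No other core gene was called. *his-38* (H4) and *his-40* (H3), side by side on chromosome X, were at 1.53-fold and 1.52-fold of wild type, with limma adjusted *P* of 0.0586 and 0.0538. *his-16* (H2A), with the uncertain length and overlap given above, had 849 and 1096 fpm in *meg-1 meg-2*, against 535 and 673 fpm in wild type, a 1.61-fold difference with a limma adjusted *P* of 0.0599. The clusters *his-63* and *his-64* on chromosome IV, *his-1* to *his-4* and *his-5* to *his-8* on chromosome V and *his-31* and *his-32* on chromosome IV had sums of 1.28-, 1.23-, 1.24- and 1.19-fold of wild type. *his-1* (H4) had 2087 and 2330 fpm in *meg-1 meg-2*, against 1626 and 2106 fpm in wild type, and the genotypes overlapped. *his-1* to *his-4* took a smaller share of the histone fpm in *meg-1 meg-2*, 17.3% and 17.9%, against 19.5% and 19.7% in wild type. The other members of the most abundant 3 of each class, *his-2* (H3), *his-32* (H3), *his-3* (H2A), *his-4* (H2B), *his-48* (H2B) and *his-64* (H4), had ratios between 1.19 and 1.32. Of the other tested core genes, *his-5* to *his-8*, *his-17*, *his-18*, *his-31*, *his-42* and *his-63*, had ratios between 1.06 (*his-18*) and 1.44 (*his-63*), and none was called.

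Genes that face each other across a short spacer had similar ratios, but so did some that do not. For example, *his-4* and *his-6*, in separate clusters of chromosome V, had log2 fold changes of 0.40 and 0.41. Whether facing partners are more alike than other histone genes was not tested. There were 12 pairs of tested histone genes transcribed away from a shared spacer of 234 to 368 bp between their annotated starts. The mean log2 fold change of a pair ran from −0.16 to 0.93, and the difference between the 2 partners was at most 0.21, with a median of 0.12. The standard error of a single gene had a median of 0.15. It belongs to a fold change between genotypes and is not the error of a difference between partners. Partners could differ widely in level, as *his-64* (H4) at a mean of 1958 fpm over the 4 libraries and *his-63* (H3) at 422 fpm. In 6 of the 7 pairs of an H3 with an H4 gene, the H3 gene had the higher log2 fold change, by no more than 0.21, and in the 4 pairs of an H2B with an H2A gene the H2B gene was higher in 2. These differences between partners were not tested.

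**Figure D4:**
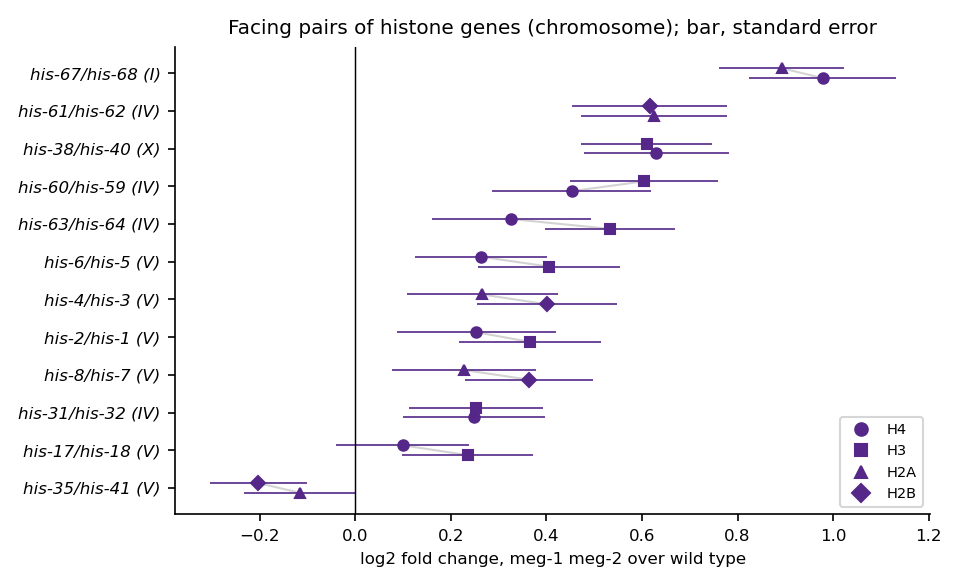
Log2 ratio (*meg-1 meg-2* over wild type), with the standard error, for both partners of 12 facing pairs of histone genes (chromosome in brackets), ordered by pair mean, with a symbol for each class. *his-67* and *his-68* stand at the top, *his-35* and *his-41* are the pair below 0, and partners lie within 0.21 of each other.

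The facing pair on the lower side was *his-35* (H2A) and *his-41* (H2B), which, unlike the other pairs, are annotated with introns. They lie with the H4 gene *his-37* on chromosome V, and all 3 were at low levels. *his-41* had 29.4 and 28.9 fpm in *meg-1 meg-2*, against 33.7 and 33.6 fpm in wild type, a ratio of 0.866 (limma adjusted *P*=0.222). *his-35* had 34.7 and 35.7 fpm in *meg-1 meg-2*, against 41.4 and 35.2 fpm, a ratio of 0.919 (limma adjusted *P*=0.531). *his-37* had 30.1 and 27.7 fpm in *meg-1 meg-2*, against 23.3 and 26.8 fpm, a ratio of 1.15 (limma adjusted *P*=0.282). None of the 3 was called, and *his-41* and *his-37* each overlap exons of another gene. Among all tested histone genes with 1 annotated exon, 27 of 27 had a log2 fold change above 0 (median 0.37), and among those with 2 or more exons 8 of 13 did (median 0.20). The genes below 0 were *hil-7*, *hil-6*, *his-35*, *his-41* and *his-71*, which all averaged less than 100 fpm. This division and the earlier one by level therefore rest on the same genes.

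The linker histone genes, with 2 called higher (2.34% of all tested genes) and 1 called lower (1.36%) among 7 tested, were the class in which genes were called in both directions. *hil-5*, on chromosome I from 5774585 to 5775610 of WBcel235, had 216 and 222 fpm in *meg-1 meg-2*, against 104 and 135 fpm in wild type. It was 1.83-fold higher (log2 fold change 0.88, standard error 0.14, limma adjusted *P*=0.0323). *hil-4*, on chromosome V from 4754313 to 4755453, had 135 and 142 fpm in *meg-1 meg-2*, against 75.1 and 91.7 fpm, and was 1.66-fold higher (log2 fold change 0.73, standard error 0.13, limma adjusted *P*=0.0336). *hil-7*, on chromosome IV from 6646312 to 6646972, went the other way, with 53.2 and 56.8 fpm in *meg-1 meg-2*, against 95.8 and 86.7 fpm in wild type. It was at 0.603 of wild type (log2 fold change −0.72, standard error 0.11, limma adjusted *P*=0.0323). All 3 are named as linker histone genes and have 2 or 3 annotated exons, and the libraries of the genotypes did not overlap in any of them. *hil-7* is a short gene model, placed in H1 by its name. Its annotated coding lengths are 120 to 201 bp, against 678 bp for *hil-5* and 762 bp for *hil-4*.

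The 2 linker genes with the most reads differed little. *hil-2* had 654 and 738 fpm in *meg-1 meg-2*, against 476 and 622 fpm in wild type, a ratio of 1.27 (limma adjusted *P*=0.176). *his-24*, which encodes the linker histone H1.1, had 502 and 567 fpm in *meg-1 meg-2*, against 478 and 539 fpm, a ratio of 1.05 (limma adjusted *P*=0.719) with overlapping libraries. *hil-3* had 136 and 158 fpm in *meg-1 meg-2*, against 100 and 127 fpm, a ratio of 1.29 (limma adjusted *P*=0.142). The remaining linker genes were low. *hil-6* had 2.92 and 2.74 fpm in *meg-1 meg-2*, against 3.20 and 4.22 fpm, a ratio of 0.763 (limma adjusted *P*=0.337). *hil-1* had 96 reads over all 4 libraries and was not tested, and *hil-8* was listed at 0.

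No gene of an H3 variant was called, and their ratios lay on both sides of 1. *his-72*, the main H3.3 gene by level, had 663 and 728 fpm in *meg-1 meg-2*, against 507 and 605 fpm in wild type, a ratio of 1.25 (limma adjusted *P*=0.152). *his-71*, the other H3.3 gene, had 37.2 and 41.1 fpm in *meg-1 meg-2*, against 48.9 and 45.5 fpm, a ratio of 0.829 (limma adjusted *P*=0.159). The H3 variant gene *his-74* had 39.95 and 45.6 fpm in *meg-1 meg-2*, against 22.9 and 29.8 fpm, a ratio of 1.62 that just missed the call (limma adjusted *P*=0.0502) and passed it in edgeR (adjusted *P*=0.0235) and DESeq2 (adjusted *P*=0.00104). In each of the 3 the libraries of the genotypes did not overlap. *his-69* and *his-70* had 31 and 4 reads over the 4 libraries, too few to test. The short gene models *his-73* (3.67 and 3.29 fpm in *meg-1 meg-2*, against 2.02 and 2.80 fpm in wild type, on exons shared with *W09H1.4*) and *his-39* (1.73 and 1.39 fpm, against 1.60 and 1.23 fpm) were near the lower end of the tested range and were not called.

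Genes of a histone supply list stood higher as well, by amounts near those of the histone genes and without calls in limma. The list has 22 genes, mostly processing factors of histone mRNA, histone chaperones and variant histones with other names. It also holds *drsh-1*, *xnp-1* and *spt-5*. In the table were 20 of them, all 20 tested. Called higher were 0 in limma (2.34% of all tested genes), 0 in edgeR (2.88%) and 1 in DESeq2 (4.11%). Called lower were 0 in each (1.36%, 2.50% and 1.68%). An unadjusted limma *P* below 0.05, whatever the fold, was reached by 14 of the 20, and by 29.8% of all tested genes in either direction. The log2 fold change was above 0 for 19 of the 20 (49.7% of all tested genes), with a median of 0.38. For 17 the genotypes did not overlap, with *meg-1 meg-2* the higher (34.2% of all tested genes). Closest to a call was *asfl-1*, one of the Asf1 chaperones that carry H3 and H4, with 28.3 and 29.9 fpm in *meg-1 meg-2* and 17.5 and 20.3 fpm in wild type. The difference was 0.58 on the log2 scale (standard error 0.12, limma adjusted *P*=0.0471), just under 1.5-fold on the tested scale, and it was the gene called by DESeq2. *cdl-1*, which encodes the protein that binds the stem-loop of histone mRNAs, had 436 and 423 fpm in *meg-1 meg-2*, against 347 and 428 fpm in wild type, with overlapping libraries and a ratio of 1.11 (limma adjusted *P*=0.436).

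The other genes of that list named here were intermediate. *csr-1*, an Argonaute reported in *C. elegans* to act in the maturation of histone mRNAs, had 42.7 and 41.9 fpm in *meg-1 meg-2*, against 30.2 and 33.5 fpm (ratio 1.33, limma adjusted *P*=0.132). *htz-1*, which encodes the H2A.Z variant, had 579 and 628 fpm in *meg-1 meg-2*, against 439 and 545 fpm (ratio 1.23, limma adjusted *P*=0.192). *hcp-3*, which encodes the centromeric H3 variant CENP-A, had 122 and 131 fpm in *meg-1 meg-2*, against 86.6 and 109.9 fpm (ratio 1.29, limma adjusted *P*=0.128). The genotypes did not overlap in any of these 3, and none was called.

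DNA replication genes had differences of the same sign. Of 30 listed genes of S phase and the replication fork, 28 were in the table and tested, all 28 had a log2 fold change above 0 without overlap of the genotypes (34.2% of all tested genes), and the median was 0.43. In limma 1 of the 28 was called higher (2.34% of all tested genes) and 0 lower (1.36%). The called gene was *mcm-6*, a subunit of the MCM helicase, with 658 and 635 fpm in *meg-1 meg-2* and 359 and 464 fpm in wild type (log2 fold change 0.66, standard error 0.14, limma adjusted *P*=0.0487). DESeq2 also called *rnr-2*, the small subunit of ribonucleotide reductase (1129 and 1060 fpm in *meg-1 meg-2*, against 620 and 801 fpm, limma adjusted *P*=0.0544), and *orc-1*, a subunit of the origin recognition complex (193 and 187 fpm, against 107 and 144 fpm, limma adjusted *P*=0.0634). *pcn-1*, which encodes the sliding clamp PCNA, had 378 and 379 fpm in *meg-1 meg-2*, against 268 and 337 fpm (ratio 1.25, limma adjusted *P*=0.150). *rnr-1*, the large subunit of ribonucleotide reductase, had 720 and 726 fpm in *meg-1 meg-2*, against 512 and 646 fpm (ratio 1.25, limma adjusted *P*=0.152).

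Several lists of transcripts from other stages and tissues of the embryo also differed between the genotypes. Calls in these lists are those of limma unless another test is named. The summed level of 20 oocyte and maternal transcripts was 2493 and 2498 fpm in *meg-1 meg-2*, against 1473 and 1876 fpm in wild type. Among 18 tested, *oma-2*, *glp-1* and *cbd-1* were called higher (2.34% of all tested genes). The sum of 19 early zygotic transcripts was 1154 and 1166 fpm in *meg-1 meg-2*, against 719 and 900 fpm. Among 15 tested, *end-1*, *pes-10* and *vet-6* were called higher (2.34% of all tested genes). In the other direction, 13 muscle structural transcripts summed to 3466 and 3486 fpm in *meg-1 meg-2*, against 6006 and 4011 fpm. Among the 13, all tested, *act-4* was called lower (1.36% of all tested genes). The 12 late epidermal transcripts summed to 5619 and 6024 fpm in *meg-1 meg-2*, against 8211 and 7991 fpm. Among 8 tested, *mlt-11* was called lower (1.36% of all tested genes). The maternal, early zygotic and late epidermal lists each held untested members that were nearly absent. Means over the 4 libraries were 0.0235 fpm for *perm-2*, 0.279 fpm for *med-1* and 0.0191 fpm for *col-19*. The sums therefore do not show that every marker of a list was present. Sums of 15 sperm transcripts were 2.52 and 3.09 fpm in *meg-1 meg-2* and 2.24 and 2.42 fpm in wild type, and 0 of the 15 reached the level for testing. The 10 intestine and yolk transcripts summed to 269 and 280 fpm in *meg-1 meg-2*, against 378 and 273 fpm. Of 4 tested, 0 were called by limma, edgeR or DESeq2. An unadjusted limma *P* below 0.05, whatever the fold, was reached by 1 (29.8% of all tested genes).

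**Figure D5:**
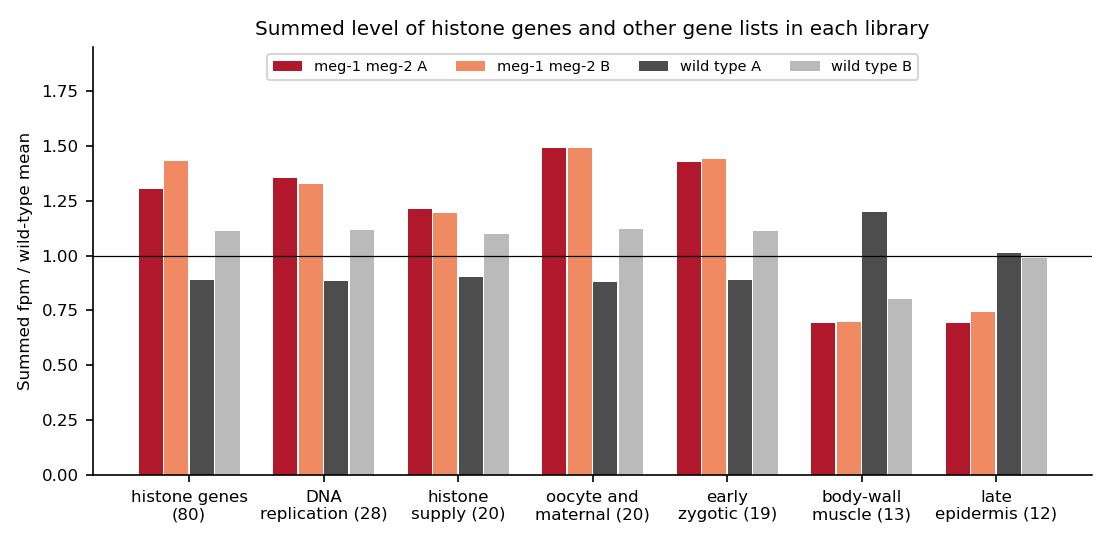
Summed fpm of the 80 histone genes and of 6 other gene lists in each library, divided by the mean of the wild-type libraries of that list (line at 1), with *meg-1 meg-2* libraries to the left of wild-type libraries. Histone genes stand at 1.30 and 1.43 in *meg-1 meg-2* and at 0.888 and 1.11 in wild type, beside 0.692 and 0.696 in *meg-1 meg-2* and 1.20 and 0.801 in wild type for muscle transcripts.

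Most of these lists also differed between the libraries of wild type. Wild-type A was below wild-type B for 35 of the 40 tested histone genes, with a median log2 difference of −0.31 against −0.10 over all tested genes, and it was also lower in the sums of replication, maternal and early zygotic transcripts and higher in muscle transcripts, while the late epidermal sums given above were nearly equal. *meg-1 meg-2* library A was below library B for 34 of the 40 histone genes, with a median difference of −0.13 against 0.00 over all tested genes, while the sums of the replication, maternal, early zygotic and muscle lists were nearly equal in these libraries. With wild-type B as the single wild-type library, the median log2 fold change of the tested histone genes was 0.20 with 33 of 40 above 0. With wild-type A alone it was 0.51 with 34 of 40 above 0. The part that the age of the embryos has in the difference between genotypes was not tested.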

How the data were processed

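RNA-seq of *C. elegans* embryos was analysed for 2 *meg-1(vr10) meg-2(RNAi)* and 2 wild-type libraries, each made from 1 µg of total RNA with 12 cycles of PCR. According to the submitters' processing notes and the methods of the study, reads were aligned to ce10 with HISAT2, counted with HTSeq and compared with DESeq2. Versions, annotation release, strand setting and the treatment of reads with several alignments are not given in the sources used here. The signal that the authors deposited, in fpm, is the mean of each genotype after DESeq2 size factors. The deposited FPKM values divide that signal by length in bp rather than kb, and were multiplied by 1000 here to give the usual FPKM. The deposited gene length in bp was used as given. Columns of the authors' own log2 fold changes and adjusted *P*-values were not used.

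The reads of both libraries were recovered from each deposited mean, as the whole numbers that, weighted by a fixed value per read in each library, give it. A single solution existed, within a relative rounding of 8e-15, for 100% of the wild-type and 99.998% of the *meg-1 meg-2* means of 42048 genes, and 1 non-histone gene was settled by the size factors. Where no read was counted, up to 3 reads (0.114 to 0.149 fpm by library) remain possible by counting error, and PCR copies were not marked. This bound does not hold for histone copies with a shared symbol, whose reads may not have been assigned to them.

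The 13060 genes averaging at least 2.18 FPKM over the libraries, the study's limit, were tested with limma (version 3.58.1, R 4.3.3, with trend, no block) on log2(FPKM + 2.00), the added value being 0.1 times the median of those genes, so changes of low genes are understated. Calls needed 1.5-fold and an adjusted *P* below 0.05. edgeR 4.0.16 (quasi-likelihood) and DESeq2 1.42.0 were run on the recovered reads. Scripts were tested on simulated data. All 80 histone identifiers matched WBcel235, which gave classes, exons, positions and overlaps, and no coordinate was converted.

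Named genes were every called histone gene, the 3 most abundant of each class, all variant and linker genes, the 10 largest changes, called genes of the other lists and 8 further genes chosen by name. Members and lists were chosen with earlier results of these data known. Histone sequences were not used here. Alternatives were other pseudocounts, filters, scalings, variance models, call rules and count models, protein-coding genes alone, and leaving out each library.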

Additional observations from a re-analysis of the deposited data

How the results depend on the processing

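The call of 4 histone genes as higher changed with most settings. It became 0 with no filter on low values (28209 genes tested), with a filter at the median level (14105 genes) and in limma without the trend, and 2 with quantile normalization. It became 11 on the fpm scale, with robust variances, with protein-coding genes alone, in DESeq2, with the unadjusted *P* and with 1.5-fold alone. Leaving out 1 library gave 0 to 8, with 0 without wild-type A, 8 without wild-type B and 2 without *meg-1 meg-2* B, where the lone library of a genotype is assumed to vary like the others. The 1 histone gene called lower became 0 with no filter, with a filter at the median level and without the trend, and 0 to 1 with 1 library left out. The 0 histone supply genes called became 2 on the fpm scale, 1 in DESeq2 and 1 with no minimum fold, and 0 to 6 with 1 library left out. The 1 DNA replication gene called became 0 with a pseudocount of 0.01 times the median, with either other filter, with quantile normalization and without the trend, 2 with median-ratio scaling, and 3 on the fpm scale, with robust variances, with protein-coding genes alone, in DESeq2, with the unadjusted *P* and with 1.5-fold alone. It was 0 to 16 with 1 library left out. Signs turned with quantile normalization for *his-1* (log2 fold change −0.23), *his-61* (−0.0025) and *his-64* (−0.16), and for *his-24* without *meg-1 meg-2* B (−0.01756) and without wild-type A (−0.01567), the highest value with 1 library left out being 0.1589. Quantile normalization can remove a rise shared by genes at the highest ranks, because it gives every library the same set of values. The causes were not tested. The log2 fold changes of the named histone genes were also followed through the other fits. Of these values 370 kept their sign and stayed called or not called as before. A further 30 became called, 27 were no longer called and 5 turned sign. The counts of called genes above, most of which changed, and the other call rules are not part of this tally. No paired analysis was possible because the labels number no replicates and the libraries recovered from the means could not be assigned to samples.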
